A study of Mus musculus with 16 samples.

Results

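Cholesterol and fatty acid synthesis in the mouse kidney was followed here through 34 genes chosen by name, with earlier results of these data known. They are the regulators of the pathway, the enzymes that build cholesterol from acetyl-CoA, a small group of genes for sterol transport, and the enzymes of fatty acid synthesis. A probe set that names 1 gene was found for 33 of the 34 genes, and all 33 passed the filter on dim signals, out of 12500 genes tested of 18194 genes named. The signal of Acat2 was not analysed here. The 33 genes passed that filter on all 16 arrays. Kidneys of 9 Aqp11-/- pups (5 males and 4 females) were set against those of 7 Aqp11+/+ pups (3 males and 4 females), all aged 7 days. The Aqp11 deletion was made in the 129/SvEvBrd strain and moved by repeated crosses into C57/BL6 mice, and the labels give C57BL/6J as the strain of both groups. The deletion is present in every cell of the animal, so the kidney was not the only organ without Aqp11, an aquaporin of the endoplasmic reticulum. Heterozygous parents from 5 breeding pairs gave both genotypes as littermates. RNA of kidney tissue from each pup was hybridised to an array of its own, and arrays are named below by genotype and the numbers in their titles (KO 1-2, WT 2-1).

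Cells make cholesterol from acetyl-CoA through mevalonate, isoprenoids, squalene and lanosterol. When sterols in the endoplasmic reticulum run low, Scap escorts the SREBP transcription factors to the Golgi, where they are cut and released to the nucleus, and Insig proteins hold them back when sterols are plentiful. SREBP-2 acts mainly on cholesterol genes and SREBP-1c mainly on fatty acid genes, while the oxysterol receptors of the LXR family switch on sterol export through Abca1 and Abcg1.

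The labels held for the deleted gene, and the tissue carried kidney markers. On the log2 scale Aqp11 averaged 2.95 ± 0.33 (SD, n = 9) in Aqp11-/- kidneys and 7.87 ± 0.16 (SD, n = 7) in Aqp11+/+ kidneys, with 7 of the 9 knockout arrays at the floor of 2.78 set on low signals. The trimmed mean signal of an array ranged from 110.8 to 235.5 before normalisation. Macrophage markers were higher in Aqp11-/- kidneys for 12 of 12 genes, with a mean log2 signal of 8.26 to 8.99 across Aqp11-/- arrays and 6.66 to 7.60 across Aqp11+/+ arrays. Proximal tubule markers were lower for 7 of 8 tested genes, at 9.37 to 10.15 across Aqp11-/- arrays and 10.55 to 10.79 across Aqp11+/+ arrays. In bulk tissue, fewer cells of a type and less RNA per cell cannot be told apart. Of 8 fat cell markers 3 were tested and none passed, and Lep was at the floor on 8 of 9 Aqp11-/- and 7 of 7 Aqp11+/+ arrays. The fat markers Adipoq and Ucp1 varied widely within both genotypes, and their mean ran from 2.78 to 9.08 in Aqp11-/- and from 3.23 to 9.23 in Aqp11+/+ kidneys. Of the adrenal cortex list, 2 of 8 genes were bright enough to test, and their estimates had opposite signs. Mc2r, the receptor for adrenocorticotropin, had a log2 change of 0.71 and was above the filter on 6 of 9 Aqp11-/- and 1 of 7 Aqp11+/+ arrays. Star, the mitochondrial cholesterol carrier of steroid cells, had -0.52 and did not pass. The enzyme genes Cyp11a1, Cyp11b1, Cyp11b2, Cyp21a1 and Hsd3b1 did not pass the filter, and the mean of the list was 3.15 to 3.92 across Aqp11-/- and 3.28 to 3.88 across Aqp11+/+ arrays. Of the liver list 1 of 2 tested genes, Apoa2, was lower, and of 5 tested markers of other kidney segments 1 was higher and 2 lower.

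Of the 33 tested genes, 6 changed between genotypes at a limma adjusted p under 0.05, or 18.2%, beside 17.7% of all genes tested. In Aqp11-/- kidneys 4 genes were higher, Srebf1, Fdps, Fasn and Scd1, or 12.1% beside 9.37% of all genes. Another 2 genes, Ebp and Stard4, were lower, or 6.06% beside 8.35% of all genes. In this fit the shares lie close to those of all genes and are not a result about the list. The labels do not say whether the first title number marks a litter. With that number as a block, 21.2% of the 33 were higher, beside 11.1% of all genes. Lower with that block were 6.06%, beside 10.2% of all genes. The median log2 change was 0.09 over the 33 genes and 0.00 over all genes, with 22 positive and 11 negative values. For none of the 33 genes did the arrays of the genotypes fall into ranges without overlap, which happened for 5.34% of all genes. Each of the 27 genes that did not pass had a 95% interval inside a change of 1.5-fold in either direction, and 10 of the 33 (30.3%) had an unadjusted p under 0.05, beside 28.8% of all genes. On the deposited scale, with no normalisation between arrays, none of the 33 genes passed by limma (4, or 12.1%, had an unadjusted p under 0.05, beside 10.5% of all genes), while 438 genes passed over the whole array.

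**Figure D1:**
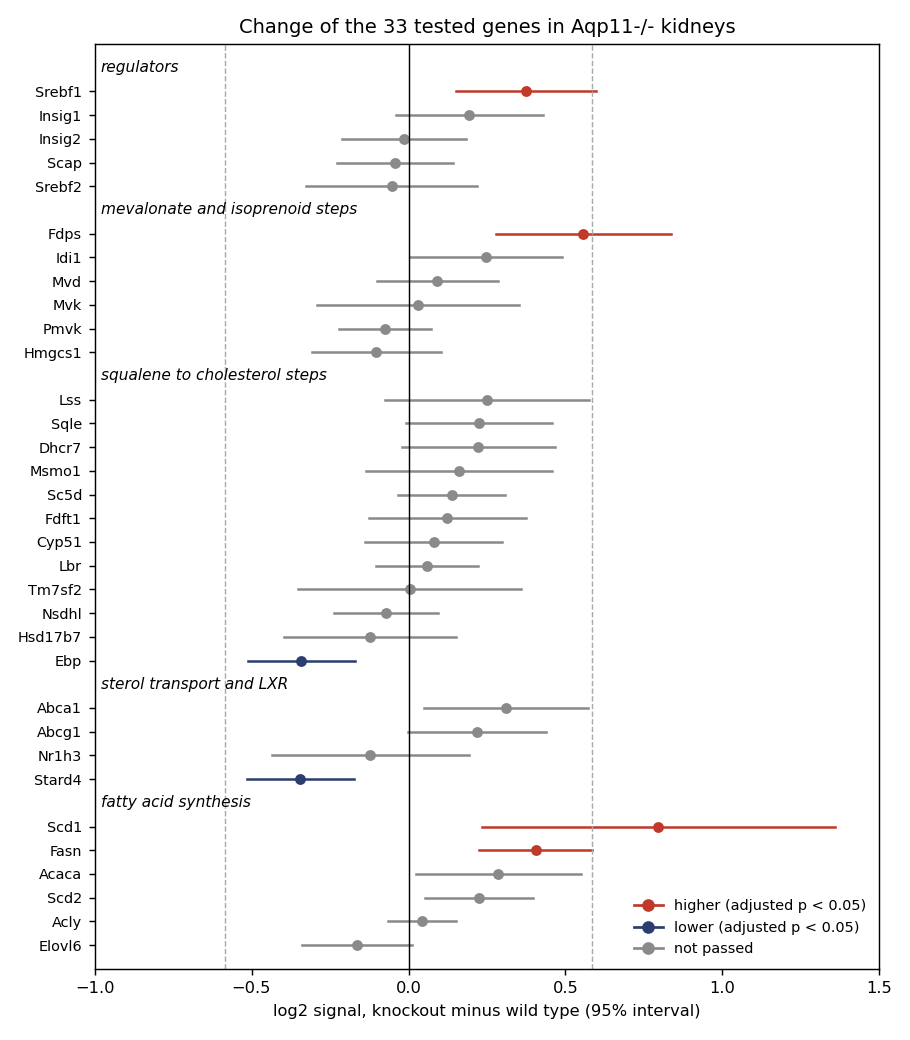
Log2 difference in signal (Aqp11-/- minus Aqp11+/+, horizontal axis) for each of the 33 tested genes, grouped by role, with points for the estimate and lines for its 95% interval; dashed lines mark a 1.5-fold change. The 4 genes in red were higher, the 2 in blue were lower, and the other 27 lie inside the dashed lines.

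The upstream sequences of these genes carry short motifs known from SREBP target promoters, and 5 stretches are shown as examples. Fasn rose, and the signals of Hmgcs1, Idi1, Lss and Msmo1 moved together across arrays. SREBP binds sterol response elements, here searched as TCACNCCAC, usually beside binding sites for the factors NF-Y (CCAAT) and Sp1 (GGGCGG). RefSeq promoter windows of assembly GRCm38.p6 were matched for 27 of the 34 genes, and each motif was searched on both strands in the 250 bases before each annotated start. Capitals mark the motifs, ATTGG and CCGCCC being the other strand of CCAAT and GGGCGG, and each sequence is written 5′ to 3′ on the strand of its gene.
Hmgcs1, chr13:119690201-119690310, plus strand: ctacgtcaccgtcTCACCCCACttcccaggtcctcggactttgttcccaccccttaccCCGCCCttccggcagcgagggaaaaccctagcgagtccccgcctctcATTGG
Idi1, chr13:8885526-8885605, plus strand: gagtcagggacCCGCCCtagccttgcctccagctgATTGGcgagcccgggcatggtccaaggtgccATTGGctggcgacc
Lss, chr10:76531465-76531564, plus strand: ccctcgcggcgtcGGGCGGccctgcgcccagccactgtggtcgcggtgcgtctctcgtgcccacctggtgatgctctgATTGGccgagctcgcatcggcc
Msmo1, chr8:64733609-64733688, minus strand: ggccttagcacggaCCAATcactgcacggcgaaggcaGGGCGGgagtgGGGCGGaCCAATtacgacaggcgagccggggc
Fasn, chr11:120824578-120824647, minus strand: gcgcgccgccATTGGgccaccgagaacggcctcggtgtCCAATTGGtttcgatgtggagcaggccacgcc

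CCAAT stood in 58.3% of the 36 promoter windows of these genes, in 34.7% of the windows of tested genes and in 33.8% of all 32851 windows. GGGCGG stood in 69.4% of their windows, in 56.8% of those of tested genes and in 32.7% of all windows. The sterol response element in the form searched was found in 1 window, that of Hmgcs1, or 2.78%, beside 1.05% of all windows. In the Fasn stretch the letters CCAATTGG hold a CCAAT on each strand, and the matches overlap by 2 bases. CCAAT and GGGCGG also stood in windows of genes not printed, among them Ebp, which fell, and Lbr. A match is a description of the letters, not of binding, and these shares carry no test.

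Among the regulators 1 of 5 genes changed (20%, beside 17.7% of all genes), and it was Srebf1, which encodes the SREBP-1 proteins. Its log2 signal ran from 8.29 through a median of 8.60 to 9.08 in Aqp11-/- kidneys, and from 8.03 through 8.23 to 8.55 in Aqp11+/+ kidneys. The ranges overlapped, although all 9 Aqp11-/- arrays lay above the Aqp11+/+ mean. The rise was 0.37 ± 0.11 (log2 change ± SE, limma adjusted p = 0.0173). The remaining 4 regulators did not pass. Srebf2, the SREBP-2 gene, averaged 8.04 ± 0.30 (SD, n = 9) in Aqp11-/- and 8.10 ± 0.27 (SD, n = 7) in Aqp11+/+ kidneys. Its log2 change of -0.05 had a 95% interval from -0.33 to 0.22. The other tested Srebf2 probe set averaged 8.05 in Aqp11-/- and 7.90 in Aqp11+/+ kidneys, a change of 0.15 that did not pass. Insig1, a sensor that retains SREBPs and is itself an SREBP target, had a change of 0.19 (interval -0.04 to 0.43), and the changes of Insig2 and the escort Scap were -0.01 and -0.04.

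Fdps was the only changed gene among 6 tested genes of the mevalonate and isoprenoid steps (16.7%, beside 17.7% of all genes). It encodes farnesyl diphosphate synthase, which makes the common precursor of squalene and of protein prenyl groups. Its log2 signal was lowest at 8.90, median 9.37 and highest at 9.65 in Aqp11-/- kidneys, against 8.41, 8.73 and 9.44 in Aqp11+/+ kidneys. The ranges overlapped, with WT 2-1 well above the other Aqp11+/+ arrays, and every Aqp11-/- array exceeded the Aqp11+/+ mean. The difference came to 1.47-fold (log2 change 0.56 ± 0.13 SE, limma adjusted p = 0.00541). Fdps has a second probe set, which was too dim to test, and in a mean over both the call was lost (log2 change 0.21, limma adjusted p = 0.219).

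Hmgcs1, the cytosolic enzyme that condenses acetyl-CoA with acetoacetyl-CoA at the entry to the mevalonate branch, did not change detectably. It had a lowest signal of 11.19, a median of 11.88 and a highest of 12.08 in Aqp11-/- kidneys, and of 11.72, 11.94 and 12.13 in Aqp11+/+ kidneys. The groups overlapped over most of their range, apart from the low arrays KO 1-2 and KO 2-3 (11.62). The interval of the change ran from -0.31 to 0.10 (limma adjusted p = 0.556). Idi1, which interconverts the isoprenoid building blocks, had a change of 0.25 that missed the threshold (limma adjusted p = 0.165). Without KO 1-2 its limma adjusted p was 0.0499. The mevalonate kinase Mvk, the next kinase Pmvk and the decarboxylase Mvd had changes of 0.03, -0.07 and 0.09. Other tested probe sets gave -0.06 for Mvk, -0.01 for Mvd and 0.19 for Idi1, none passing. Those of Hmgcs1 gave -0.03, -0.10, -0.23 and -0.39, and none passed.

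From squalene to cholesterol, 1 of 12 genes changed (8.33%, beside 17.7% of all genes), and it was lower. Ebp, the isomerase that shifts a double bond in the sterol ring late in the pathway, had signals of 8.82, 9.01 and 9.33 (lowest, median, highest) in Aqp11-/- kidneys, against 9.26, 9.41 and 9.67 in Aqp11+/+ kidneys. All 9 Aqp11-/- arrays lay below the Aqp11+/+ mean and the ranges overlapped only at their ends. Ebp fell to 0.789 of the Aqp11+/+ level (log2 change -0.34 ± 0.08 SE, limma adjusted p = 0.00531). The other 11 genes had log2 changes between -0.12 and 0.25. Sqle, the epoxidase that commits squalene to sterols, was at 8.83, 9.23 and 9.46 in Aqp11-/- kidneys and 8.47, 9.07 and 9.48 in Aqp11+/+ kidneys. Its arrays overlapped across nearly the whole range, and its change of 0.23 did not pass (limma adjusted p = 0.188). Sqle passed with the first title number as a block (limma adjusted p = 0.0414).

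Positive changes that did not pass were also measured for the lanosterol synthase Lss (0.25, limma adjusted p = 0.321), the last reductase Dhcr7 (0.22, 0.221), the sterol methyl oxidase Msmo1 (0.16, 0.511) and the desaturase Sc5d (0.14, 0.293). The squalene synthase Fdft1, the lanosterol demethylase Cyp51 and the reductases Lbr and Tm7sf2 had changes of 0.12, 0.08, 0.06 and 0.00. The demethylating enzymes Nsdhl and Hsd17b7 had negative values, -0.07 and -0.12, that did not pass. On the brightest probe sets, the single fall in this arm stood among 9 positive and 3 negative estimates. These signs depend in part on the probe set. Other tested probe sets gave -0.24 and -0.31 for Sc5d, -0.10 for Lss and -0.04 for Msmo1, none passing. Those of Fdft1 (0.08), Cyp51 (0.04) and Hsd17b7 (-0.17 each) kept their sign.

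**Figure D2:**
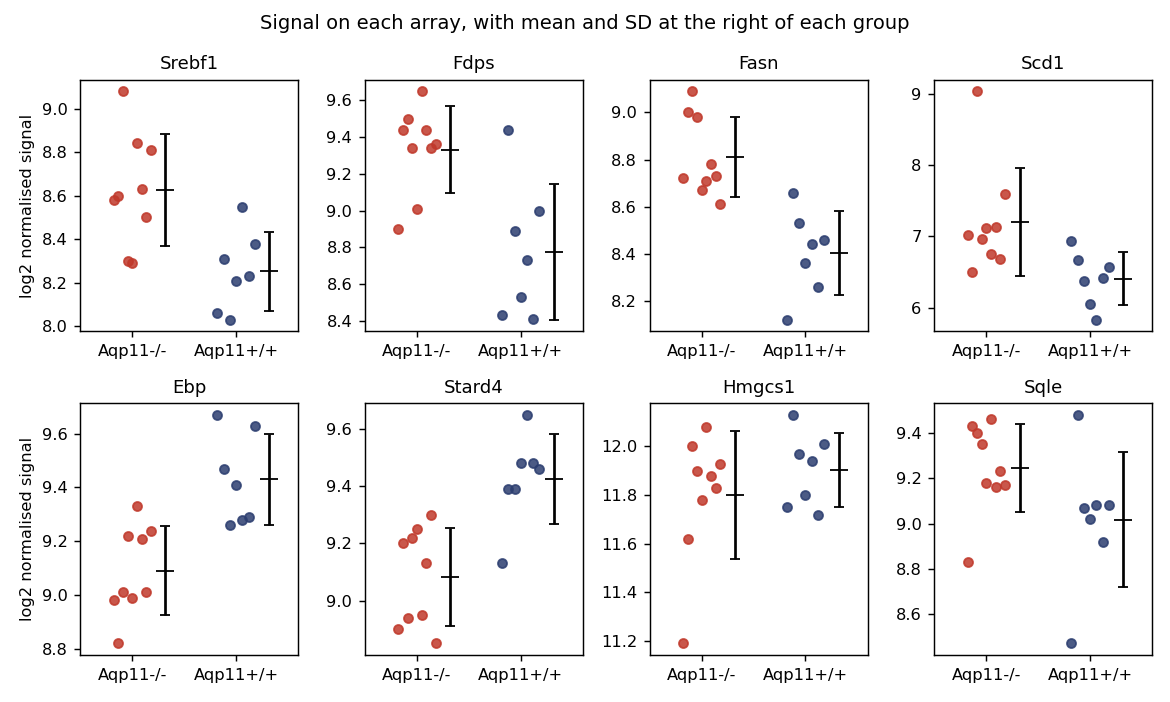
Log2 normalised signal (vertical axis) of 8 genes on each array, 9 Aqp11-/- arrays in red at the left of each panel and 7 Aqp11+/+ arrays in blue at the right; the bar beside each group is its mean and SD. Srebf1, Fdps, Fasn and Scd1 were higher and Ebp and Stard4 lower in Aqp11-/- kidneys, while Hmgcs1 and Sqle did not pass, and KO 1-2 lies low for both of them.

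Of the 4 genes of sterol transport and LXR signalling, Stard4 changed (25%, beside 17.7% of all genes). It encodes a soluble carrier that moves cholesterol between membranes and is known as an SREBP target. Its signals were 8.85, 9.13 and 9.30 in Aqp11-/- kidneys and 9.13, 9.46 and 9.65 in Aqp11+/+ kidneys (lowest, median, highest). The overlap came from the low array of the Aqp11+/+ group, and all 9 Aqp11-/- arrays were below the Aqp11+/+ mean. Stard4 fell to 0.788 of the Aqp11+/+ level (log2 change -0.34 ± 0.08 SE, limma adjusted p = 0.00479), and its other tested probe sets gave -0.15 and -0.22 without passing. The cholesterol exporter Abca1 had 9.59, 9.92 and 10.60 in Aqp11-/- kidneys and 9.21, 9.72 and 9.97 in Aqp11+/+ kidneys. Its change of 0.31 did not pass (interval 0.05 to 0.57, limma adjusted p = 0.0984). With the first title number as a block Abca1 passed (limma adjusted p = 0.044). Abcg1, which exports sterols to lipoproteins, had a change of 0.22 (limma adjusted p = 0.177) and Nr1h3, the gene of LXR alpha, -0.12 (0.662).

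In fatty acid synthesis 2 of 6 genes were higher, Fasn and Scd1, or 33.3% beside 9.37% of all genes. The group is small and the Scd1 call was lost in 23 of 37 alternatives, so this share is a description. Fasn encodes the synthase that builds palmitate. Its signals in Aqp11-/- kidneys were 8.61, 8.73 and 9.09, against 8.12, 8.44 and 8.66 in Aqp11+/+ kidneys (lowest, median, highest). Only the top of the Aqp11+/+ range reached the Aqp11-/- arrays, all of which exceeded the Aqp11+/+ mean. The rise was 1.32-fold (log2 change 0.41 ± 0.09 SE, limma adjusted p = 0.00196).

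Scd1, the desaturase that makes oleate and palmitoleate, had the largest fold change of the 33 genes and the widest spread. Its log2 signals on Aqp11-/- arrays were 6.50 at the lowest, 7.02 at the median and 9.04 at the highest, and on Aqp11+/+ arrays 5.83, 6.42 and 6.94. The highest value belonged to KO 2-4, well apart from the next array at 7.59. The rise of 1.74-fold passed narrowly (log2 change 0.80 ± 0.27 SE, limma adjusted p = 0.0459). Leaving out any of 11 arrays took its limma adjusted p to between 0.0503 and 0.102. They were KO 1-2, KO 3-2, KO 3-3, KO 4-3, KO 5-2 and WT 2-1, WT 2-2, WT 3-1, WT 4-1, WT 4-2 and WT 5-1. Without KO 2-4 the change was smaller and still passed (0.565, limma adjusted p = 0.0239).

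The related desaturase Scd2 had signals of 10.82, 11.02 and 11.40 in Aqp11-/- and 10.42, 10.86 and 11.06 in Aqp11+/+ kidneys. All 9 Aqp11-/- arrays lay above the Aqp11+/+ mean, but the change of 0.22 did not pass (limma adjusted p = 0.0678). It passed without WT 4-1 or without KO 5-2. It also passed with the first title number as a block, or with the mean of Adipoq and Ucp1 as a second term. Acaca, whose product makes malonyl-CoA and sets the pace of the pathway, had a change of 0.29 (limma adjusted p = 0.133). Acly, the citrate lyase that supplies cytosolic acetyl-CoA, differed by 0.04 with a narrow interval from -0.06 to 0.15. The elongase Elovl6 had a value of -0.16 (limma adjusted p = 0.209), and it was lower when all its probe sets were averaged (limma adjusted p = 0.0323).

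Scd1 was set against fat markers within each genotype. The arrays highest in the mean of Adipoq and Ucp1 were KO 2-4 at 9.08 and WT 1-1 at 9.23, and each was also the highest of its genotype for Scd1. Within Aqp11-/- kidneys Pearson's r was 0.71 and Spearman's rho 0.73 (n = 9, exact permutation p = 0.0544 and 0.0311, two-sided). Within Aqp11+/+ kidneys they were 0.87 and 0.68 (n = 7, exact permutation p = 0.0147 and 0.110). After Benjamini-Hochberg adjustment over the 16 relations computed for these genes and marker lists, no p for Scd1 stayed under 0.05 (0.137 and 0.166 in Aqp11-/-, 0.117 and 0.294 in Aqp11+/+ kidneys). Without the 2 arrays farthest from the median of the markers, r was 0.85 in Aqp11-/- and 0.26 in Aqp11+/+ kidneys. Neither Adipoq nor Ucp1 passed between the genotypes. Fabp4, the third tested fat marker, was not part of their mean (log2 change 0.07, limma adjusted p = 0.606). With the mean of Adipoq and Ucp1 as a second term the Scd1 change was 0.741 (limma adjusted p = 0.0105). Without KO 2-4 and WT 1-1 it was 0.654 (limma adjusted p = 0.0102). Srebf1 did not pass without these 2 arrays (log2 change 0.285, limma adjusted p = 0.0683). Both settings were chosen after seeing the data, and the part of fat cells in the rise of Scd1 was not tested.

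Among the other fatty acid genes, Elovl6 followed the same markers by rank in Aqp11-/- kidneys, with a rho of 0.88 (adjusted exact permutation p = 0.0249) and an r of 0.61 (adjusted exact permutation p = 0.137). Without the 2 farthest arrays that r was 0.47. In Aqp11+/+ kidneys the rho was -0.32 and the r -0.21, and neither passed (adjusted exact permutation p = 0.642 and 0.779). No relation of Fasn, Srebf1 or Acaca with these markers passed after adjustment.

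Ebp moved with the proximal tubule markers in Aqp11-/- kidneys. Their r was 0.89 and rho 0.93 (n = 9, adjusted exact permutation p = 0.00432 and 0.0131), and r was 0.92 without the 2 arrays farthest from the median. In Aqp11+/+ kidneys r was 0.85 and rho 0.71 (n = 7, adjusted exact permutation p = 0.137 and 0.294), and r was 0.37 without the 2 farthest arrays. In Aqp11-/- kidneys Ebp was lowest on KO 2-3, the array lowest in these markers. Stard4, the other gene that fell, had an r of -0.13 in Aqp11-/- and -0.34 in Aqp11+/+ kidneys, and neither passed (adjusted exact permutation p = 0.779 and 0.653). The part of the proximal tubule in the fall of Ebp was not tested. Abca1 and the macrophage markers had an r of 0.70 in Aqp11-/- kidneys (adjusted exact permutation p = 0.137), which was 0.00 without KO 1-2 and KO 5-2, the 2 arrays farthest from the median. In Aqp11+/+ kidneys that r was -0.59 (adjusted exact permutation p = 0.275).

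**Figure D3:**
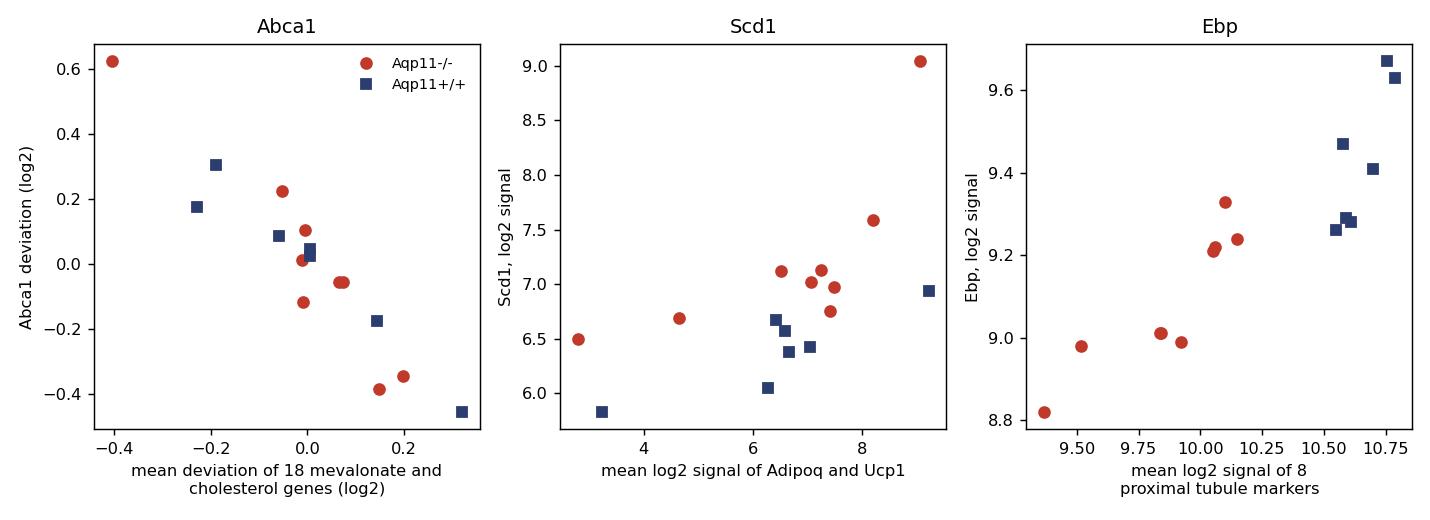
Each point is an array, circles for Aqp11-/- and squares for Aqp11+/+. Left, deviation of Abca1 from its genotype mean against the mean deviation of 18 mevalonate and cholesterol genes (log2); middle, log2 signal of Scd1 against the mean of Adipoq and Ucp1; right, log2 signal of Ebp against the mean of 8 proximal tubule markers. Abca1 falls as the 18 genes rise in both genotypes, Scd1 is highest within each genotype on the array highest in fat markers, and Aqp11-/- arrays are lower than Aqp11+/+ arrays on the tubule marker axis and mostly lower for Ebp.

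The 6 tested genes of the mevalonate steps and the 12 of the squalene to cholesterol steps varied together from array to array within genotypes. Each animal has 1 array, so differences between animals and between arrays cannot be told apart. After each gene's genotype mean was removed, the median Pearson r over their 153 pairs was 0.58 across 16 arrays, beside 0.01 over all pairs of tested genes. Of the 153 pairs, 144 had a positive r, and 5.38% of all pairs on the array had an r at least as high as that median. Pairs within the mevalonate steps had a median r of 0.73, those within the squalene to cholesterol steps 0.50. The pairs share arrays, so these values are a description. Idi1, Lss and Msmo1, whose upstream stretches are given above, correlated with the mean of the other 17 genes at 0.57, 0.81 and 0.90, and Hmgcs1 at 0.86. Nsdhl and Dhcr7, whose windows are not printed, correlated at 0.87 and 0.86. Ebp and Lbr, at 0.14 and 0.16, hardly followed the rest, and their windows also hold CCAAT and GGGCGG.

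A pair of arrays carried much of this variation. KO 1-2 was the lowest of its genotype for 16 of the 18 genes, on average 0.41 below the mean of the Aqp11-/- arrays (mean deviation -0.41). WT 2-1 was the highest of its genotype for 12 of the 18, on average 0.32 above the mean of the Aqp11+/+ arrays. KO 1-2 was also the brightest array before normalisation, at a trimmed mean of 235.5, and the highest in macrophage markers, at 8.99. Without KO 1-2 and WT 2-1 the median r was 0.35. On the deposited scale the pairs of all genes were already correlated at a median of 0.73, and those of the 18 genes at 0.83. With median centring in place of quantile normalisation the medians were 0.10 and 0.69. Array brightness had an r with the mean of the 18 genes of -0.58 in Aqp11-/- and -0.20 in Aqp11+/+ kidneys, and its part in the shared variation was not tested.

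**Figure D4:**
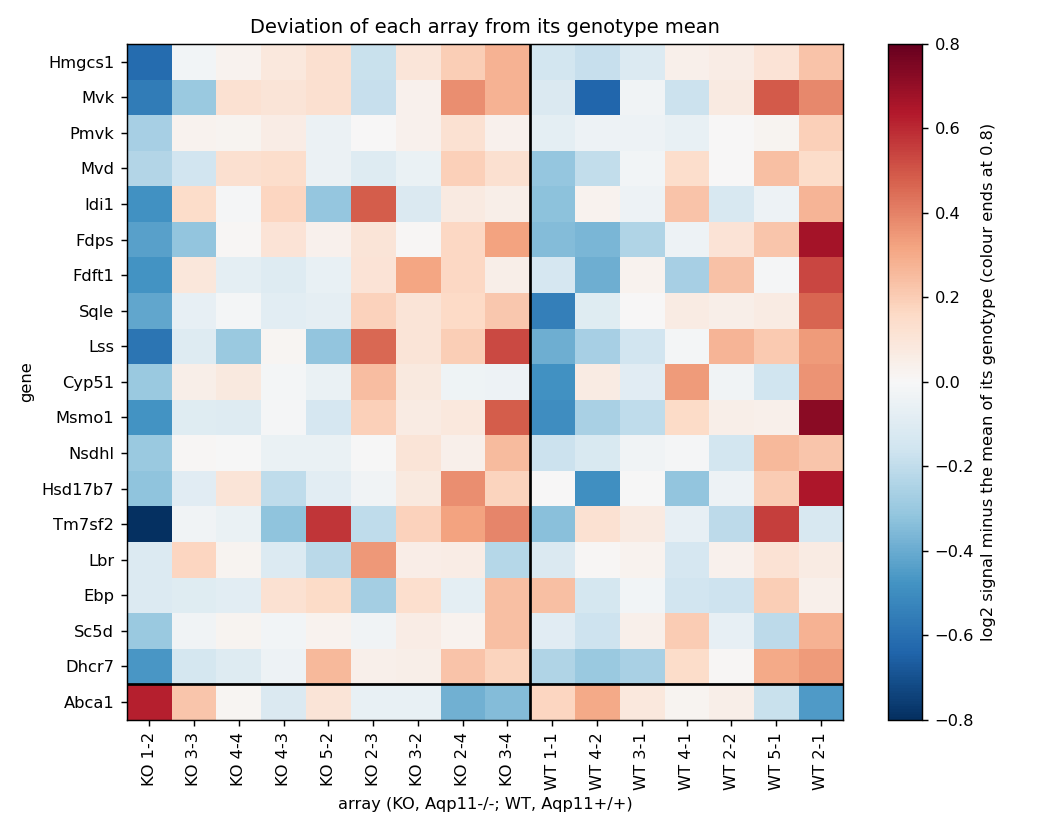
Deviation of the log2 signal from the mean of its genotype (colour, red above and blue below, ending at 0.8) for 18 mevalonate and cholesterol genes and Abca1 (rows) on 9 Aqp11-/- arrays at the left and 7 Aqp11+/+ arrays at the right, each genotype sorted by the mean of the 18 genes. KO 1-2 is low for nearly every gene and WT 2-1 high, and Abca1 in the bottom row runs the other way.

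Abca1, the exporter that opposes the build-up of sterol, ran against the synthesis genes. Its deviations correlated negatively with each of the 18 genes (median r -0.80). With the mean of their deviations, each gene's divided by its SD, r was -0.95 (rho -0.95) over 16 arrays. Within genotypes r was -0.95 in Aqp11-/- and -0.97 in Aqp11+/+ kidneys, with rho of -0.93 and -0.96. Of the 12500 tested genes none had a lower r with that mean. Without KO 1-2 and WT 2-1 the value was -0.86, and with median centring it was -0.829. The other Abca1 probe sets gave -0.50 and -0.72. On the deposited scale, where most genes rise and fall together across arrays, the sign turned and r was 0.579. Abcg1 was negative with all 18 genes at a weaker median of -0.25. Its r with their mean was -0.67 in Aqp11-/- and 0.05 in Aqp11+/+ kidneys.

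Other lipid genes took different places in this pattern. Elovl6, Fasn and Acly correlated with the mean of the 18 genes at 0.72, 0.63 and 0.63, Srebf2 and Srebf1 at 0.37 and 0.35, and Scd1 at 0.12. Within genotypes, Srebf2 had 0.11 in Aqp11-/- and 0.72 in Aqp11+/+ kidneys, and Fasn 0.39 and 0.91. The 27 tested genes of the wider pathway list ran from -0.84 for Mylip, a ligase that degrades lipoprotein receptors, to 0.64 for the elongase Elovl5. Ggps1, an isoprenoid enzyme beside Fdps, had -0.60. Outside the lists, the 10 genes with the most similar pattern were Tpm2, Ruvbl2, Zfp618, Lsm3, Emg1, Fam136a, Sec11a, Btf3, Lipg and Phf10, with r between 0.89 and 0.92 over 16 arrays. The most opposed were Mmd (-0.93), Igfbp4 (-0.91), Atp2a3 (-0.91), Fga (-0.90) and Selenop (-0.88). The pattern was not limited to lipid genes, since 11.4% of the other tested genes had an r of at least 0.58 with the same mean and 6.31% of all tested genes had -0.58 or lower. The first component of the variation within genotypes held 24.7% of it and had an r of 0.64 with the mean of the 18 genes.

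Around the 33 genes, the pathway list held 29 further genes, of which 27 were tested. Among them 6 were lower in Aqp11-/- kidneys, 22.2% of the 27 beside 8.35% of all genes. The list was chosen with earlier results of these data known, so this share is a description. Fads1 and Lrp8 were higher. Lrp8 is among the 27 but is not counted as a changed gene, for the reason given below. Apart from Lrp8, the ranges of Fads1, Acss2, Acat1 and Vldlr did not overlap between genotypes, which happened for 5.34% of all genes. Fads1, a desaturase of polyunsaturated fatty acids, was higher by 0.29 (limma adjusted p = 0.00205). The other rise, of the lipoprotein receptor gene Lrp8, is given as a value only. Lrp8 was above the filter on 8 of 9 Aqp11-/- and 0 of 7 Aqp11+/+ arrays, so it was tested only because it was brighter in Aqp11-/- kidneys, at 4.75 ± 0.20 (SD, n = 9) against 3.87 ± 0.55 (SD, n = 7). The largest fall was that of Acss2, which makes cytosolic acetyl-CoA from acetate. Its log2 signal ran from 7.91 to 8.36 in Aqp11-/- and from 8.58 to 9.36 in Aqp11+/+ kidneys, ranges that did not overlap, a change of -0.79 (limma adjusted p = 8.39e-06).

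Mlxipl, the gene of the carbohydrate response factor ChREBP, had a change of -0.54 (limma adjusted p = 0.00202). The malic enzyme gene Me1, a source of NADPH for fatty acid synthesis, was at -0.27 (limma adjusted p = 0.0318). The mitochondrial thiolase Acat1 had -0.36 (limma adjusted p = 4.65e-05), the lipoprotein receptor Vldlr -0.28 (limma adjusted p = 0.00509) and the acyl-CoA synthetase Acsl3 -0.26 (limma adjusted p = 0.0386). The part of the lower proximal tubule markers in these falls was not tested.

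Sex did not separate the genes of the list. With genotype in the model, 0 of the 33 genes differed between females and males by limma, beside 0.048% of all genes (6 of 12500), and none of the 33 had an unadjusted p under 0.05, where 389 of all genes did. The genotype effect differed between the sexes for 0 of the 33 genes and for 0% of all genes by limma's interaction term. At an unadjusted p under 0.05, 3 of the 33 and 1354 of all genes had such a difference. The 3 genes were Srebf2, Hmgcs1 and Tm7sf2, each with an interaction adjusted p of 0.455. On its brightest probe set, Srebf2 averaged 7.84 in female Aqp11-/- and 8.19 in female Aqp11+/+ kidneys. In males it averaged 8.20 in Aqp11-/- and 7.97 in Aqp11+/+ kidneys.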

How the data were processed

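Kidney RNA of 16 pups was measured on Affymetrix arrays of 45101 probe sets. The deposited values are linear signal intensity, and the submitters' processing notes name GCOS 1.3. No source used here says whether the authors scaled intensity between arrays. Arrays were quantile normalised, values under the 20th percentile (6.89, or 2.78 in log2) were raised to it, and log2 was taken, so changes of dim genes are understated. Names came from the platform annotation, in which 34958 probe sets name 1 gene. The brightest probe set stood for each gene, and a gene was tested where at least 7 of 16 arrays had it above their 40th percentile.

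Aqp11-/- and Aqp11+/+ kidneys were compared with limma 3.58.1 (R 4.3.3), using its moderated test with a variance trend and no term besides genotype, and Benjamini-Hochberg adjustment over all 12500 genes at 0.05. Each array is a separate animal, and their number limits the precision. Sex entered as a second term and as an interaction. Co-variation used deviations from genotype means. Relations with markers used exact permutation tests within a genotype, two-sided. The genes, lists and tests were chosen with earlier results of these data known. The named genes are all those of the list, the changed genes and a few others of a wider pathway list, marker genes, Aqp11, and the 10 genes most and the 5 most opposite in pattern. Promoter windows came from RefSeq (GRCm38.p6).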

Additional observations from a re-analysis of the deposited data

Results flagged for a closer look

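In 6 of 66 sets of arrays, 1 for each gene and genotype, the end array lay far from the nearest of the others relative to the whole range. Chance alone gives about 1 in 20. Pmvk was lowest on KO 1-2, at a log2 signal of 7.01 beside 7.23 for the next array. Sqle was lowest on the same array, at 8.83 beside 9.16, and so was Sc5d, at 8.25 beside 8.52. Among Aqp11+/+ arrays, Pmvk was highest on WT 2-1, at 7.54 beside 7.37. Scd1 was highest on KO 2-4, at 9.04 beside 7.59, and Scd2 on KO 2-3, at 11.4 beside 11.07. KO 1-2 and WT 2-1 are the arrays named above as lowest and highest for the synthesis genes.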

How the results depend on the processing

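Of the 6 changed genes, none reversed in 37 alternatives. On the deposited scale 438 genes passed by limma (284 higher, 154 lower) and 0 of the 33 genes in either direction (4 and 0 at an unadjusted p under 0.05). With the first title number as a replicate block 7 of the 33 were higher (7 with sex added too), the added genes being Sqle, Abca1 and Scd2, and 2 lower. Over all genes 2655 passed with that block, and 1382 (11.1%) were higher, beside 21.2% of the 33. It changed no other call of the 33. Deviations of same-numbered arrays across genotypes correlated at -0.01 to 0.32. Such values cannot show whether the number marks litters, and the labels do not say, so it was used only as an alternative. Smaller sets of arrays gave fewer calls. Males alone gave 1417 genes (599 lower), with 2 of the 33 higher and 0 lower. Females alone gave 681 (362 higher, 319 lower), with 0 and 0 (5 and 3 unadjusted). The 8 brighter arrays alone gave 1333 (653 higher, 680 lower), with 0 higher and 1 lower, and the 8 dimmer ones 1183 (707 higher, 476 lower), with 2 higher and 1 lower. With each array left out in turn, 1858 to 2209 genes passed (995 to 1191 higher, 863 to 1055 lower), 3 to 4 of the 33 were higher, and 2 lower. Sex differences and interactions stayed at 0 of the 33 there.

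The Scd1 call was lost in 23 of 37 alternatives, those of Srebf1 in 6, Fdps, Ebp and Stard4 in 4 each and Fasn in 3. The median r of the 18 synthesis genes was 0.827 on the deposited scale, 0.691 with median centring and 0.353 without KO 1-2 and WT 2-1, and 0.458 (without KO 1-2) to 0.648 with 1 array left out. The r of Abca1 with them reversed to 0.579 on the deposited scale. The cause of the move under median centring was not tested. Settings with the fat markers and all those on co-variation were chosen after seeing the data.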
